A study of Mus musculus with 6 samples.

Results

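The genes described here are 10 components of the core circadian clock, measured by RNA sequencing in mouse hepatocytes. They are *Arntl* (also called Bmal1), *Clock*, *Npas2*, *Per1*, *Per2*, *Per3*, *Cry1*, *Cry2*, *Dbp* and *Tef*. They were taken as a list of symbols and matched to Ensembl identifiers. All 10 were found among 55487 gene rows, and all 10 passed the filter on low counts, as did 12741 genes in all. The cells were hepatocytes, the parenchymal cells of the liver, isolated from mice 6 to 8 weeks old, and RNA was taken 48 h after isolation. One group was wild type (AEG-1-WT) and the other was homozygous for AEG-1-C75S, an allele that replaces a cysteine of AEG-1 (encoded by *Mtdh*) with a serine, and both came from matings of heterozygotes. All 6 libraries, 3 per genotype, carry the treatment label Control. Whether replicates are separate animals is not stated in the labels, so the p-values measure the spread between libraries, which may be technical. The hour of isolation and the hour of harvest are not given in the sources used here, so the clock phase of each library is unknown and may differ between libraries.

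The clock is a transcriptional feedback loop that runs in nearly every cell. ARNTL pairs with CLOCK, or with its relative NPAS2, and activates genes that carry E-boxes, among them the Period and Cryptochrome genes, whose proteins return to the nucleus and repress that pair. In a further loop, the REV-ERB receptors (encoded by *Nr1d1* and *Nr1d2*) repress, and the ROR receptors activate, *Arntl*, *Npas2*, *Cry1* and other genes through RORE elements. DBP and TEF belong with HLF to the PAR bZIP factors, which act on D-boxes and carry the rhythm to detoxification and metabolic genes in the liver. In the intact liver *Dbp* is known for one of the steepest daily rhythms of any transcript, and *Arntl* runs in antiphase to it.

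The start regions were searched for the elements through which the loops are known to act, and a few of those with a match are shown before the values. RefSeq windows on GRCm38.p6, from 250 bases before to 50 bases after a start, were found for 9 of the 10 genes, with 14 windows in all, and *Per2* had no entry. Both strands were searched for the E-box CACGTG, its variant CACGTT, the D-box as TTATGTAA or TTACGTAA, the cyclic AMP response element TGACGTCA, and the RORE by its consensus. None of these motifs overlapped another in the windows shown. In the sequences below, given 5′ to 3′ along the gene's strand and ending just before the start, capitals mark the motifs, and positions are those of a motif's first base along the gene.
Cry1 (chr10:85185055-85185304, minus strand): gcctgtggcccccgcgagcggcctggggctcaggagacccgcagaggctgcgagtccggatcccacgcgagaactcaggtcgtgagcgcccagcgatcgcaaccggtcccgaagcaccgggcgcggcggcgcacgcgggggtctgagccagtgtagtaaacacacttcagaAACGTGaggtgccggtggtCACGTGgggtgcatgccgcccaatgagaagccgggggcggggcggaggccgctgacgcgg
Per1 (chr11:69098699-69098948, plus strand): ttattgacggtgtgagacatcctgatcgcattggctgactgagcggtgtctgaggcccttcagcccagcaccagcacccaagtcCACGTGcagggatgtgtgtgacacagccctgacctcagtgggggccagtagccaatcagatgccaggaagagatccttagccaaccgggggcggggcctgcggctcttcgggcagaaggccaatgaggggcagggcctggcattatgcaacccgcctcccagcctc
Per3 (chr4:151044666-151044915, minus strand): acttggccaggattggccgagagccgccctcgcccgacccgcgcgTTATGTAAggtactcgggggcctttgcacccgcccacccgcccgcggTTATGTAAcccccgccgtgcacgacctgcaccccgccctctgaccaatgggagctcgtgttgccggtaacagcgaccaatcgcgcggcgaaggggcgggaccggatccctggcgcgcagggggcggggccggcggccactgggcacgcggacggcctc
The *Cry1* window held an E-box at -60 from the start and, on the opposite strand, an E-box variant at -79, read as AACGTG in the printed sense. The first *Per1* start had an E-box at -166, while *Per3* had a pair of D-boxes, at -205 and -158. *Tef* had an E-box in both of its windows, at -127 and -138, and *Cry2* had an E-box variant at -166. A RORE was found at *Arntl* alone among the 10 genes, starting at 26 bases after its second start, and it is shown as a stretch of 30 bases in capitals within its flanks.
Arntl (chr7:113207528-113207557, plus strand): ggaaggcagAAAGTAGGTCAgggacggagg
Among all 32851 windows of the same length, 7.15% held an E-box, 4.68% its variant, 1.06% a D-box, 1.79% a cyclic AMP response element and 0.384% a RORE. The cyclic AMP response element was in none of the 14 windows. No match was found in the windows of *Clock*, *Npas2* and *Dbp*. These matches describe the letters in the window and nothing of what binds there.

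The libraries held 16944723 to 21044292 counts on genes, with C75S replicate 1 the shallowest, and 3 counts corresponded to 0.142 to 0.172 CPM (counts per 1000000 counts, on TMM-scaled library sizes). The share of unmapped reads was 4.75% to 5.81% in the C75S libraries and 4.37% to 4.59% in the WT libraries, highest in C75S replicate 1, and its part in the results was not tested. *Mtdh* lay at 192 to 212 CPM in C75S and 191 to 201 CPM in WT; a gene count does not read the changed codon and so checks no label. The hepatocyte label was met by all 10 hepatocyte markers listed, with a summed level of 66669 to 79599 CPM in C75S and 74815 to 82574 CPM in WT. The Kupffer cell markers *Clec4f* and *Adgre1* had 4 counts and 1 count over the 6 libraries, while *Cd68*, the most abundant of that list of 8, had 13942. The summed level of 8 Kupffer cell and macrophage markers was 96.1 to 140 CPM in C75S and 102 to 134 CPM in WT. For 8 endothelial markers the sum was 31.4 to 41.9 CPM in C75S and 29.7 to 40.5 CPM in WT, most of it *Stab2*. Of the 5 endothelial markers tested, 3 had every C75S library above every WT library (*Pecam1*, *Lyve1* and *Kdr*), against 9.02% of all tested genes. *Cdh5* (log2 fold change 0.34) and *Stab2* (-0.09) overlapped. *Stab2* lay at 20.5 to 30.2 CPM in C75S and 21.6 to 32.7 CPM in WT. *Kdr* rested on 10 to 20 counts per library. Of the 5, 0 were called by edgeR, DESeq2 or limma-voom, against 3.11% of all genes in edgeR. An unadjusted p under 0.05 was found for 2 of the 5 in each tool, against 13.4% of all genes in edgeR, and the median log2 fold change was 0.69. *Pecam1* lay at 2.87 to 3.80 CPM in C75S and 1.14 to 2.58 CPM in WT, and *Lyve1* at 2.09 to 2.99 CPM in C75S and 1.17 to 1.66 CPM in WT. For 8 stellate cell markers the sum was 54.6 to 71.5 CPM in C75S and 70.2 to 92.6 CPM in WT. Most of it was *Reln*, at 49.9 to 67.2 CPM in C75S and 65.8 to 88.1 CPM in WT, which overlapped. For 8 cholangiocyte markers the sum was 180 to 234 CPM in C75S and 160 to 168 CPM in WT, most of it *Spp1*, with *Cftr* at 0 in every library. The cholangiocyte sum, *Krt19* within it (9.52 ± 1.22 CPM in C75S, 5.47 ± 0.26 CPM in WT, SD, n = 3 each), the hepatocyte marker *Cyp2e1* and the endothelial markers *Pecam1*, *Lyve1* and *Kdr* were separated by genotype. Among tested markers, 1 of 10 hepatocyte and 2 of 5 cholangiocyte markers (*Krt19* and *Spp1*) were separated, against 18.0% of all genes. In edgeR 1 of these 10 and 1 of these 5 were called, against 3.11% of all genes. They were *Cyp2e1* (edgeR adjusted p = 0.00908) and *Krt19* (0.00151), both higher in C75S. The part of this in the clock gene values was not tested. In bulk RNA, fewer cells of a type and less RNA per cell cannot be told apart.

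Per length, the 10 genes spanned a wide range in these cells. Levels between genes are given as RPKM, here CPM per kilobase of the union of GENCODE M21 exons. *Per1*, a repressor of the loop, stood highest, at 18.6 to 21.6 RPKM over the 6 libraries, and *Clock*, the partner of ARNTL, followed at 10.1 to 11.5 RPKM. *Tef* lay at 7.20 to 8.04, *Cry2* at 5.74 to 7.09, *Cry1* at 5.62 to 7.33, *Arntl* at 4.71 to 5.80 and *Per2* at 3.44 to 4.32 RPKM. *Npas2* reached 1.46 to 2.77 RPKM, *Per3* 0.596 to 0.825 RPKM and *Dbp* 0.134 to 0.238 RPKM. *Per1* exceeded 82.7% of all tested genes and *Arntl* 50.2%, whereas *Dbp* exceeded 4.11%.

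Within a genotype, neighbours in this order had library ranges that did not overlap, except *Cry2* and *Cry1* in WT. There *Cry1* averaged 7.02 ± 0.30 RPKM and *Cry2* 6.37 ± 0.57 RPKM, with *Cry1* the higher by mean, while in C75S *Cry1* averaged 5.83 ± 0.23 RPKM and *Cry2* 6.72 ± 0.48 RPKM (SD, n = 3 each). The ratio of *Cry1* to *Cry2* CPM was 0.419, 0.446 and 0.520 in C75S replicates 1, 2 and 3 and 0.675, 0.519 and 0.567 in the WT replicates, so the genotypes overlapped in it. The PAR bZIP pair was far apart: *Tef* exceeded *Dbp* per length by 36.3 to 53.6 times in the C75S libraries and by 32.1 to 50.8 times in the WT libraries.

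**Figure D1:**
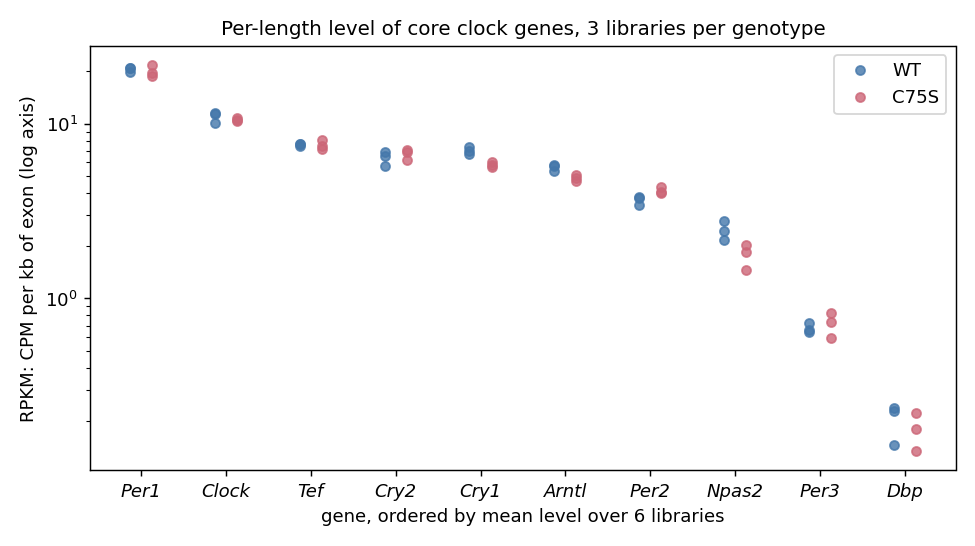
Level of each of the 10 core clock genes in RPKM (log axis), as 1 point for each of 3 WT (blue) and 3 C75S (red) libraries, with genes ordered by their mean. *Per1* lies highest, at 18.6 to 21.6, and *Dbp* lowest, at 0.134 to 0.238.

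C75S was then compared with WT across all 12741 genes with edgeR's quasi-likelihood test, Benjamini-Hochberg adjusted, and 396 genes (3.11%) had an adjusted p under 0.05, 222 (1.74%) higher and 174 (1.37%) lower in C75S. Of the 10 clock genes, 0 were among them, and DESeq2 and limma-voom also called 0. At an unadjusted p under 0.05 there were 3 of the 10, *Npas2*, *Cry1* and *Arntl*, all lower in C75S, against 13.4% of all genes. The libraries of the genotypes did not overlap for 4 of the 10, 3 of them with C75S below and *Per2* with C75S above, against 18.0% of all genes in either direction, 8.96% with C75S below and 9.02% with C75S above. The median log2 fold change of the 10 was -0.05, beside -0.003 over all tested genes. At the background share of calls, a count of 0 in 10 genes is no result about these genes, and the values below are given as measurements.

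The activators of the loop came first. *Arntl* (ENSMUSG00000055116, chromosome 7, 113207465 to 113314126, plus strand, GRCm38) had 43.6, 40.2 and 43.2 CPM in WT replicates 1, 2 and 3 and 35.4, 36.8 and 38.1 CPM in the C75S replicates. Every C75S library lay below every WT library. The log2 fold change was -0.20 (SE 0.07), a ratio of 0.870 with a 95% interval of 0.789 to 0.959, and the edgeR adjusted p was 0.131 (unadjusted 0.00686). Over the 14 alternative analyses its adjusted p ran from 0.116 to 0.369.

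*Npas2*, the relative of CLOCK that can replace it as the partner of ARNTL, showed the largest difference of the 10 in log2 terms. It lies on chromosome 1 (39193731 to 39363236, plus strand) and had 11.6, 13.3 and 10.4 CPM in the WT libraries against 9.70, 8.87 and 7.01 CPM in the C75S libraries. The groups did not overlap, though C75S replicate 1 and WT replicate 3 lay close together. The counts behind these values were 131 to 272 per library. The log2 fold change was -0.46 (SE 0.14), a ratio of 0.725 with a 95% interval of 0.598 to 0.880, and the edgeR adjusted p was 0.0618. That p was on either side of 0.05 depending on the analysis: it was 0.0481 without C75S replicate 1 and 0.0184 without the filter on low counts, but 0.301 without WT replicate 2.

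*Clock* itself (chromosome 5, 76209868 to 76304792, minus strand) had 139, 155 and 158 CPM in WT and 148, 143 and 144 CPM in C75S. The groups overlapped, and WT replicate 1 was the lowest of all 6. Its log2 fold change was -0.06 (SE 0.05), with a 95% interval of the ratio from 0.889 to 1.04 (edgeR adjusted p = 0.696). The ratio of *Npas2* to *Clock* counts was 0.0658, 0.0622 and 0.0487 in the C75S libraries and 0.0838, 0.0854 and 0.0656 in WT, where C75S replicate 1 and WT replicate 3 overlapped.

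Among the repressors, the Cryptochromes are the strongest inhibitors of the CLOCK and ARNTL pair. *Cry1* (ENSMUSG00000020038, chromosome 10, 85131700 to 85185064, minus strand), whose window with the E-box is printed above, had 24.5, 22.5 and 23.3 CPM in WT and 18.8, 19.4 and 20.3 CPM in C75S. All C75S libraries were lower than all WT libraries. The log2 fold change was -0.27 (SE 0.09), a ratio of 0.832 with a 95% interval of 0.735 to 0.940 (edgeR adjusted p = 0.108, unadjusted 0.0049, with adjusted values from 0.108 to 0.303 over the alternatives). *Cry2* (chromosome 2, 92403646 to 92434043, minus strand) had 36.3, 43.4 and 41.0 CPM in WT and 44.8, 43.5 and 39.0 CPM in C75S. These overlapped, with an interval of the ratio from 0.948 to 1.17 (edgeR adjusted p = 0.725).

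The Period genes encode the partners of the Cryptochromes. *Per1* (chromosome 11, 69095217 to 69109960, plus strand), which hormones and serum are known to induce, had 117, 112 and 117 CPM in WT and 109, 105 and 121 CPM in C75S. Its highest and lowest values were both in C75S, and the interval of the ratio was 0.893 to 1.05 (edgeR adjusted p = 0.788). *Per2* (chromosome 1, 91415982 to 91459324, minus strand) had 22.2, 20.1 and 22.1 CPM in WT and 25.3, 23.4 and 23.8 CPM in C75S. It was the gene of the 10 for which every C75S library lay above every WT library, at a log2 fold change of 0.17 (SE 0.09), a ratio of 1.13 with an interval of 0.997 to 1.27 (edgeR adjusted p = 0.393). *Per3* (chromosome 4, 151003652 to 151044665, minus strand), with the D-boxes shown above and 107 to 167 counts per library, had 6.22, 6.92 and 6.31 CPM in WT and 7.06, 7.92 and 5.72 CPM in C75S. C75S held both its highest and its lowest library, the interval of the ratio was 0.858 to 1.33 (edgeR adjusted p = 0.858), and the estimate changed sign without C75S replicate 2.

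**Figure D2:**
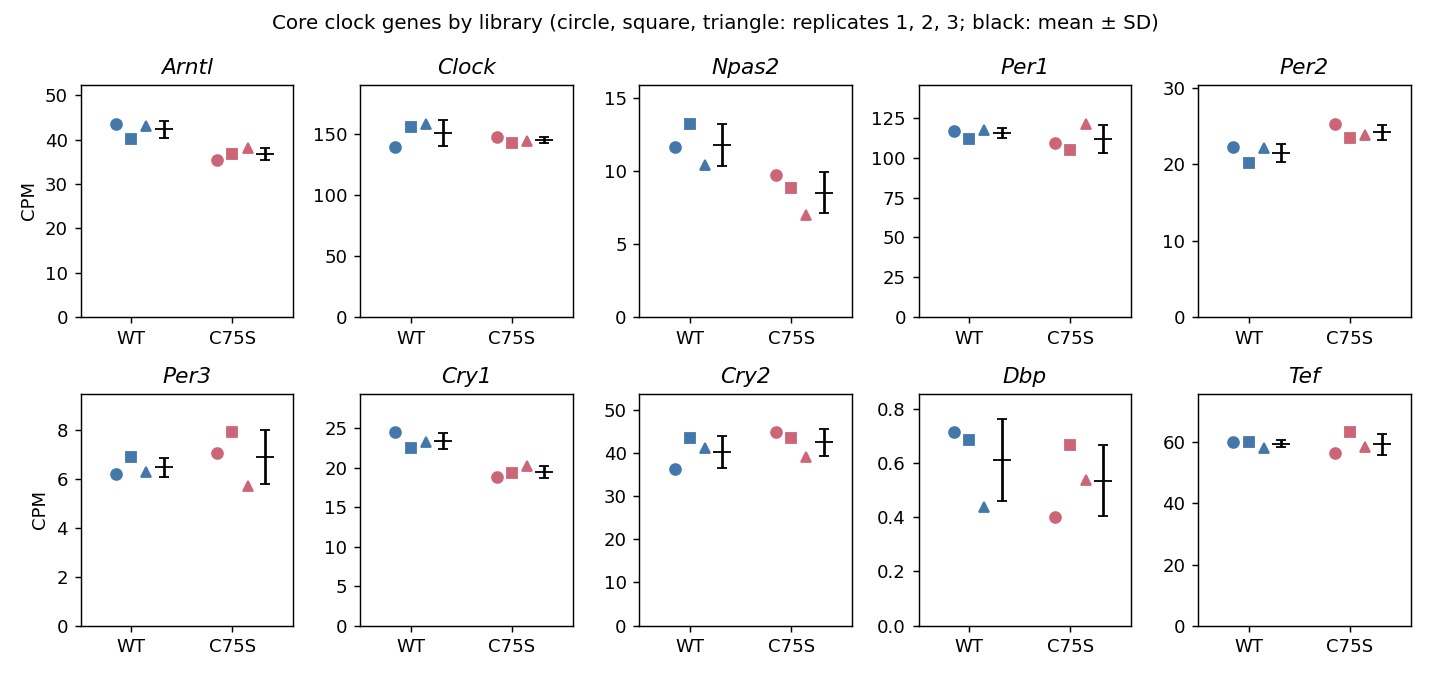
CPM of each of the 10 core clock genes in 3 WT (blue) and 3 C75S (red) libraries, each panel with its own axis from 0, and the mean ± SD in black. *Arntl*, *Npas2* and *Cry1* lie lower in every C75S library and *Per2* higher, while the other 6 genes overlap.

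The output factors *Dbp* and *Tef* did not separate the genotypes. *Dbp* (ENSMUSG00000059824, chromosome 7, 45705088 to 45710203, plus strand) rested on 15, 14 and 9 counts in WT and 7, 14 and 10 counts in C75S, or 0.712, 0.682 and 0.437 CPM in WT and 0.402, 0.664 and 0.535 CPM in C75S. These values are above the 3-count level of the libraries but give a 95% interval of the ratio from 0.456 to 1.71, so a change within those bounds could not be told from none at this depth (edgeR adjusted p = 0.922). Of the exon length of *Dbp*, 18.0% overlaps *Sphk2* on the opposite strand, and with unstranded counting *Dbp* did not pass the filter. *Tef* (chromosome 15, 81802421 to 81826863, plus strand) was measured on 986 to 1334 counts per library, at 60.2, 60.3 and 58.3 CPM in WT and 56.6, 63.3 and 58.4 CPM in C75S. The interval of its ratio was 0.917 to 1.09 (edgeR adjusted p = 0.993). Their relative *Hlf* had 19.8, 21.7 and 20.3 CPM in WT and 17.5, 18.6 and 19.8 CPM in C75S, with every C75S library below every WT library by a margin smaller than the spread within either group (edgeR adjusted p = 0.527).

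The other transcriptional clock genes were taken from a list of 11, of which 10 could be tested, and *Rorb* had a single count over all libraries. Of the 10 tested, 1 passed the threshold and was lower in C75S, 0 were higher, beside 3.11% of all genes called and 1.37% of all genes called lower. At an unadjusted p under 0.05 there were 4 of the 10 (13.4% of all genes), in 3 of the 10 the genotypes did not overlap (18.0% of all genes), and the median log2 fold change was -0.12. The gene called was *Rora*, a receptor that activates genes with a RORE. It fell from 210, 209 and 205 CPM in WT to 181, 179 and 185 CPM in C75S, with a log2 fold change of -0.20 (SE 0.05) and a ratio of 0.873 with an interval of 0.816 to 0.934 (edgeR adjusted p = 0.019). Every C75S library lay below every WT library. The call was lost without C75S replicate 1 (adjusted p = 0.0597), C75S replicate 2 (0.0890) or WT replicate 2 (0.104), with estimates of -0.21 to -0.18 whichever library was dropped.

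The REV-ERB repressors, which act on the same element as the ROR receptors, had estimates of the opposite sign with adjusted p-values above 0.05. *Nr1d1* had 14.1, 11.6 and 14.3 CPM in WT and 13.1, 17.1 and 19.5 CPM in C75S, overlapping at C75S replicate 1 (log2 fold change 0.32, SE 0.13, edgeR adjusted p = 0.238, unadjusted 0.0207). Without C75S replicate 1 its log2 fold change was 0.45 and the adjusted p 0.0449, and without C75S replicate 3 it was 0.19 with an adjusted p of 0.668. *Nr1d2* had 43.7, 41.2 and 43.1 CPM in WT and 46.7, 50.3 and 46.6 CPM in C75S, with all C75S libraries above all WT libraries (log2 fold change 0.17, SE 0.06, edgeR adjusted p = 0.207, unadjusted 0.0159). The E-box-driven repressors *Bhlhe40*, *Bhlhe41* and *Ciart* overlapped between genotypes, at means of 279, 2.20 and 4.43 CPM in WT and 275, 2.42 and 4.01 CPM in C75S, with edgeR adjusted p-values of 0.920, 0.881 and 0.826. *Nfil3*, which represses through D-boxes, averaged 69.5 ± 3.19 CPM in WT and 64.7 ± 4.99 CPM in C75S (adjusted p = 0.507 in edgeR, SD, n = 3 each). *Arntl2*, the paralog of *Arntl*, averaged 7.67 ± 1.44 CPM in WT and 6.80 ± 1.42 CPM in C75S (edgeR adjusted p = 0.698, SD, n = 3 each).

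**Figure D3:**
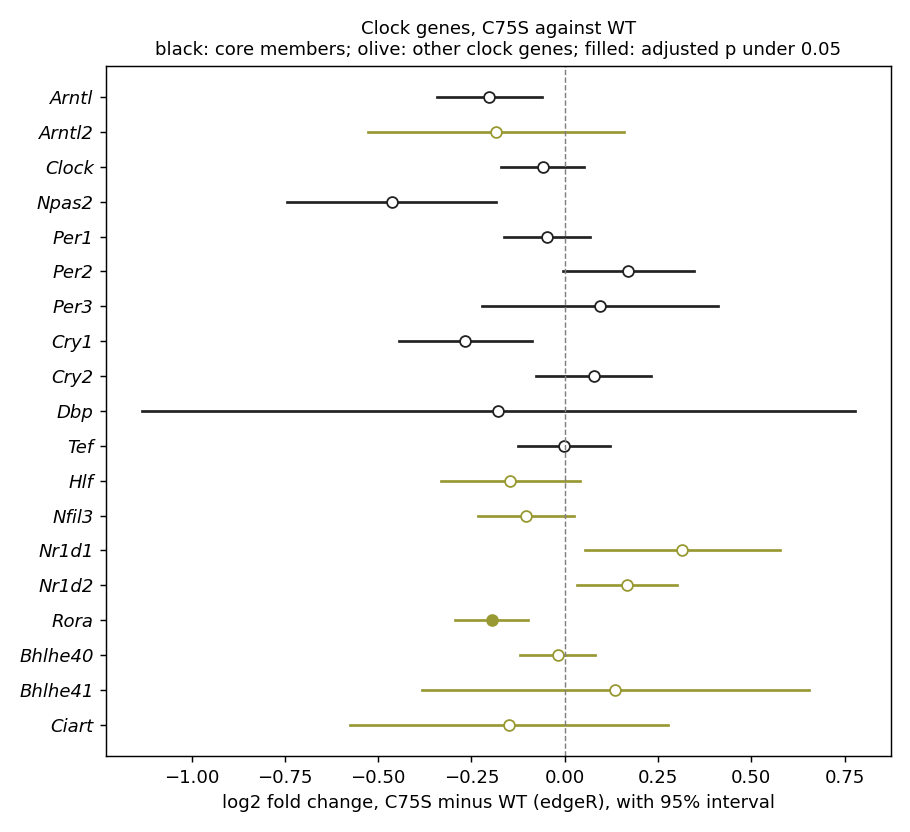
Log2 fold change of C75S against WT (horizontal axis) with its 95% interval for the 10 core clock genes (black) and 9 other transcriptional clock genes (olive), with filled points for an adjusted p under 0.05. *Rora* is the filled point, at -0.20, and the interval of *Dbp* is the widest.

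Seen by library, the members differed in spread and did not all have their highest and lowest values in the same libraries. The spread of log2 CPM over the 6 libraries, highest minus lowest, was 0.91 for *Npas2*, 0.69 for *Dbp* and 0.46 for *Per3*, which are also the least abundant of the 10. It was 0.38 for *Cry1*, 0.33 for *Per2*, 0.30 for *Arntl* and for *Cry2*, 0.21 for *Per1*, 0.19 for *Clock* and 0.16 for *Tef*, beside a median of 0.31 over all tested genes. So 5 of the 10 lay above that median, *Per2* narrowly, *Arntl* and *Cry2* lay narrowly below it, and *Per1*, *Clock* and *Tef* further below. The median covers tested genes of all levels, and spread was not compared at matched level. *Arntl* and *Cry1* were highest in WT replicate 1 and lowest in C75S replicate 1, whereas *Npas2* was highest in WT replicate 2 and lowest in C75S replicate 3. *Per1* had its highest library and *Per3* its lowest in C75S replicate 3. *Per2* was highest in C75S replicate 1, where *Dbp* was lowest.

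Ratios of members within a library remove its scaling. *Per2* over *Cry1* was 1.35, 1.21 and 1.17 in the C75S libraries and 0.907, 0.894 and 0.948 in the WT libraries, so the ratio separated the genotypes with *Per2* counts above *Cry1* counts in each C75S library and below in each WT library. *Per1* over *Arntl* was 3.08, 2.85 and 3.19 in C75S and 2.68, 2.78 and 2.72 in WT, again without overlap. *Arntl* alone already separated the genotypes, while *Per1* alone overlapped. *Dbp* over *Arntl* overlapped, at 0.0113, 0.0180 and 0.0140 in C75S and 0.0163, 0.0170 and 0.0101 in WT. *Arntl* over *Nr1d2*, a ratio chosen after the values were seen, was 0.759, 0.731 and 0.818 in C75S and 0.999, 0.974 and 1.00 in WT. In *Per2* over *Cry1* and in *Arntl* over *Nr1d2*, each gene alone already separated the genotypes, in opposite directions. Those ratios therefore had to separate them too and add nothing to the levels given above. All ratios here are descriptions, with no test.

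**Figure D4:**
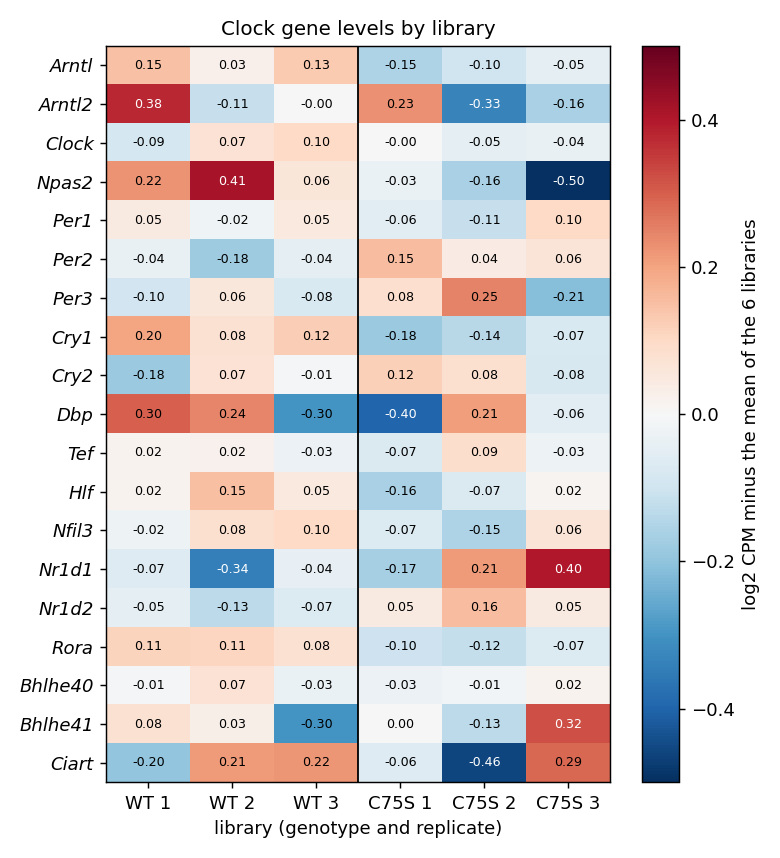
Log2 CPM of 19 clock genes in each of 6 libraries (columns, WT on the left), as the difference from that gene's mean over the libraries, with red for higher and blue for lower. *Arntl*, *Npas2*, *Cry1*, *Hlf* and *Rora* are lower in each C75S library than in any WT library and *Per2* and *Nr1d2* higher, and no library is high or low for all genes.

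The genes most like *Arntl* over the 6 libraries, by Pearson's r of log2 CPM among 9359 named genes with a mean of at least 5 CPM, were *Dop1a* (r = 0.996), *Nfe2l2* (0.995) and *Gpatch8* (0.989). For *Dbp* they were *Carhsp1* (0.974), *Cyb561d1* (0.973) and *Unc119* (0.973). With 6 points that share genotype, depth and culture, 181 tested genes had an r above 0.9 with *Arntl* and 74 with *Dbp*, so these names describe likeness in this set of libraries. None of the 6 passed the threshold between genotypes in edgeR's test, with adjusted p-values from 0.146 to 0.941, which does not show equal levels.

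Enzymes and cofactors that set the stability and activity of clock proteins were next: casein kinases, GSK3 and AMPK subunits, ubiquitin ligases, and the histone deacetylase complex of REV-ERB. All 29 listed genes were tested, 0 passed the threshold of edgeR's test in either direction, as in DESeq2 and limma-voom, 1 had an unadjusted p under 0.05 in edgeR, and the median log2 fold change was -0.02. Beside background shares of 3.11% called and 13.4% at an unadjusted p under 0.05, a count of 0 called is no result about this list. The gene with the unadjusted p under 0.05 was *Usp2*, a deubiquitinase and itself a clock output, at 13.1 ± 1.74 CPM in WT and 10.8 ± 1.64 CPM in C75S (SD, n = 3 each; edgeR adjusted p = 0.367). The next by p were *Nampt*, which makes the NAD precursor used by SIRT1, with an edgeR adjusted p of 0.583, and *Prkaa1*, an AMPK catalytic subunit, at 0.598.

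Liver genes known to follow the clock were listed as 23, of which 19 could be tested. Of these, 1 was higher and 2 were lower in C75S past the threshold, against 1.74% higher and 1.37% lower of all genes, and the median log2 fold change was -0.07. At an unadjusted p under 0.05 there were 5 of the 19, against 13.4% of all genes. *Noct* (nocturnin, a rhythmic phosphatase of NADP(H)) rose from 22.7, 22.7 and 22.7 CPM in WT to 32.2, 29.8 and 27.2 CPM in C75S. The log2 fold change was 0.39 (SE 0.08; adjusted p = 0.00716 in edgeR's test). Every C75S library stood above the WT libraries, and without C75S replicate 1 the adjusted p was 0.0621. *Cyp2b10*, a cytochrome P450 induced through the receptor CAR, fell from 1079, 1040 and 1018 CPM in WT to 616, 817 and 787 CPM in C75S. Its log2 fold change was -0.50 (SE 0.09; adjusted p = 0.00731 in edgeR's test). Its call was lost without WT replicate 1 or WT replicate 3 (adjusted p = 0.0523 in both fits), and reads shared with other members of its P450 subfamily make its count uncertain.

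*Insig2*, which retains SREBP in the endoplasmic reticulum, fell from 348, 344 and 349 CPM in WT to 283, 293 and 323 CPM in C75S, at -0.21 on the log2 scale (SE 0.05; adjusted p = 0.022 in edgeR's test). Dropping 1 library removed the call in 5 of 6 cases, with adjusted p-values up to 0.124 (without C75S replicate 1). By p, the next outputs were *Gys2*, *Avpr1a* and *Cyp2a5*, at 29.8, 5.12 and 248 CPM in WT and 24.8, 3.43 and 303 CPM in C75S, with edgeR adjusted p-values of 0.205, 0.211 and 0.460. *Gys2* passed without C75S replicate 2 (adjusted p = 0.0245) and *Avpr1a* without WT replicate 3 (0.0283). *Cyp2a5* has a near-identical neighbour, *Cyp2a4*, so its count is uncertain. *Alas1* and *Por*, which PAR bZIP factors are known to drive, had adjusted p-values of 0.716 and 0.682.

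Glucocorticoid and temperature cues are known to reset liver clocks, so their targets are given as companions to *Per1*. Of 11 glucocorticoid-induced genes, 1 was higher and 1 lower past the threshold, against 1.74% and 1.37% of all genes. At an unadjusted p under 0.05 there were 5 of the 11 (13.4% of all genes). Of the 11 estimates 9 were negative, against 6482 of all 12741 genes, and the median log2 fold change was -0.03, so near 0. *Fkbp5*, a chaperone of the glucocorticoid receptor, fell from 296, 353 and 358 CPM in WT to 268, 272 and 300 CPM in C75S, with C75S replicate 3 above WT replicate 1 (log2 fold change -0.26, SE 0.07, edgeR adjusted p = 0.034). Dropping 1 library removed the call in 4 of 6 cases, at most to an adjusted p of 0.180 without WT replicate 2. *Lcn2*, which inflammatory signals also induce, rose from 1489, 1505 and 1342 CPM in WT to 1684, 1590 and 1854 CPM in C75S (log2 fold change 0.24, SE 0.06, edgeR adjusted p = 0.029). That call too was removed in 4 of 6 cases, up to an adjusted p of 0.190 without WT replicate 3.

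*Sgk1*, a kinase gene induced by the receptor, missed the threshold at 289 ± 26.1 CPM in WT and 241 ± 23.5 CPM in C75S (SD, n = 3 each; edgeR adjusted p = 0.0686), but passed it in 6 of 14 alternatives, among them DESeq2 (0.0177). *Zbtb16* and *Gadd45b* followed by p, with edgeR adjusted p-values of 0.126 and 0.316. Among 9 temperature-responsive genes 0 were called by edgeR, DESeq2 or limma-voom, 1 had an unadjusted p under 0.05 in edgeR (13.4% of all genes), and the median log2 fold change was -0.12. The smallest p-values belonged to the chaperone *Hsph1* (adjusted p = 0.298, and 0.0476 without WT replicate 1, in edgeR), the cold-inducible RNA-binding gene *Cirbp* (0.407) and the co-chaperone *Dnajb1* (0.482).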

How the data were processed

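Deposited were raw read counts per Ensembl gene for 6 hepatocyte libraries, in the layout STAR writes. The authors' tools were Trim Galore 0.6.6, STAR 2.7.9a and edgeR 3.36.0 with the mm10 (GRCm38) build, per the submitters' processing notes; the annotation release is not given in the sources used here. Reverse-strand counts were used, 33.3 times the forward-strand ones. Summary rows (unmapped, multimapping, no feature, ambiguous) were left out; multimapping reads were 18.0% to 18.5% of reads, unmapped 4.37% to 5.81%, no feature 4.99% to 5.55%, ambiguous 0.891% to 0.926%. No replicate pair looked like 1 library deposited again (chi-square per degree of freedom 4.05 to 8.99).

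Genes were filtered with filterByExpr (minimum count 10, total 15), scaled by TMM and fitted in edgeR 4.0.16 under R 4.3.3 (robust quasi-likelihood test, genotype only). Log2 CPM used a prior count of 2. Intervals are 95%, from the fit's SE and total degrees of freedom. Intervals and the 3-count level cover different errors: the latter is counting error only. Of 55487 rows, 55227 matched GENCODE M21. On simulated data with 12741 genes, 200 of them changed 1.5-fold, 74.5% were called and 8.59% of calls were false.

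The members and gene lists were chosen with earlier results of these data known. Named were all 10 members, the other transcriptional clock genes, and from each other list the called genes plus the 3 with the next smallest p; *Alas1*, *Por* and marker genes are named besides. A gene this rule covers is not reported here, though list counts include it. Alternatives were RLE, upper-quartile and total-count scaling, DESeq2 1.42.0, limma-voom (limma 3.58.1), no filter, unstranded counts, a replicate block and leaving out each library.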

Additional observations from a re-analysis of the deposited data

How the results depend on the processing

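Of 139 alternative values for the 10 clock genes, 130 kept direction and side of the threshold, 3 passed it and 6 changed sign. *Npas2* passed without the filter on low counts (log2 fold change -0.47, adjusted p = 0.0184), with the replicate block (-0.47, 0.0318) and without C75S replicate 1 (-0.56, 0.0481), and leaving out single libraries gave -0.56 to -0.34; the cause was not tested. *Tef*, near 0, changed sign with total-count scaling (0.0096) and when libraries were left out (-0.050 to 0.031), and *Per3* without C75S replicate 2 (-0.021, in a range of -0.021 to 0.21). Among the other named genes, *Bhlhe40* changed sign without WT replicate 2 (0.013; range -0.041 to 0.013), *Bhlhe41* without C75S replicate 3 (-0.0095; -0.0095 to 0.24) and *Ciart* without C75S replicate 2 (0.035; -0.36 to 0.035). The number of clock genes of the 10 called was 0 or 1 in every alternative. *Dbp* gave no value with unstranded counts, where it did not pass the filter.

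The count of 396 genes ranged from 201 (without WT replicate 2) to 355 when single libraries were left out; it was 246 without WT replicate 3 and 253 without C75S replicate 1, all with fewer samples. It was 573 without the filter and 387 with DESeq2. Without the filter 290 of the calls were higher and 283 lower, against 222 and 174. Over all tested genes, deviations of same-numbered libraries of the genotypes correlated at 0.017, -0.040 and 0.025, and those of differently numbered libraries at -0.044 to 0.024. The replicate block called 480 genes, against 396 without it. A pairing that acts on part of the genes was not tested. The depth limits *Dbp* most, at 7 to 15 counts per library.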
